A study of Mus musculus with 5 samples.

Results

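The genes described here are 38 protein-coding genes that mouse hair follicle stem cells expressed in control mice and that were listed at lower levels in every library made after induced loss of Polycomb repressive complex 1 (PRC1). They were chosen from the deposited TPM values (a transcript abundance scaled for transcript length and for library size). A gene was taken when both Control libraries were at 5 TPM or more and the highest PRC1 i2KO library was at no more than 0.5 of the lower Control library. Names starting with Hox, Krt, Col, Itg, Lam, Rpl, Rps, Nduf, Kcn or Pcdh were left out, as were Grik1, Tgm5 and Fgf18. Among 30840 features in the table, 17431 were protein-coding, and 7226 of these were eligible by name and by Control level. The 38 genes are 0.526% of the eligible ones. With the rule turned round (at least 5 TPM in every PRC1 i2KO library and at least doubled over the higher control), 44 of 6473 genes passed (0.68%). With the 5 TPM minimum kept on Control, 7 of the 7226 eligible genes were at least doubled (0.0969%). Because the rule used the values of all 5 libraries, the lower level of these genes is how they were chosen and is given as a description, without a test.

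Mice of both groups were Ring1a-/-, Ring1bflox/flox, that is, without Ring1a and with a Ring1b that Cre can delete, and all had 1% RU-486 put on the skin on 10 days in a row from postnatal day 50. The Control group, with 2 libraries numbered 2 and 3, carried no Cre transgene. The PRC1 i2KO group, with 3 libraries numbered 1, 2 and 3, also carried K15-CrePR1, a Cre recombinase driven by a keratin 15 promoter and activated by RU-486, so the groups differ by the transgene as well as by the deletion. Back skin was taken 10 days after the last treatment, at postnatal day 70, and 50000 EpCAM+, Sca1-, CD34+ cells with high α6-integrin were sorted per sample for polyadenylated RNA sequencing.

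PRC1 attaches ubiquitin to histone H2A through its catalytic subunits Ring1a or Ring1b, a mark found at many silenced developmental genes. Its loss is therefore best known for genes that become active. Hair follicle stem cells sit in the bulge of the follicle and stay quiescent for long periods between rounds of hair growth. The 38 genes hold enzymes, transporters, zinc finger proteins, chaperones and trafficking factors in place of a single pathway.

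Ring1b is listed under its symbol Rnf2 and was at 25.1 and 24.4 TPM in Control 2 and 3 and at 16.8, 12.9 and 11.7 TPM in PRC1 i2KO 1, 2 and 3. The gene-level value pools deleted and remaining exons, so it does not check the deletion. Library totals ran from 11626006 counts in Control 3 to 43307694 in PRC1 i2KO 2. Mitochondrially encoded RNA took 24.3% and 24.2% of TPM in Control 2 and 3 and 33.3%, 27.3% and 35.4% in PRC1 i2KO 1, 2 and 3, and because TPM values share a fixed sum, other genes are listed lower where that share is larger. The bulge markers Cd34, Krt15, Lgr5, Sox9, Lhx2 and Nfatc1 were at 55.9 TPM or more in all libraries, but for Cd34, Lgr5, Lhx2 and Nfatc1 all 3 PRC1 i2KO libraries lay below the 2 Control libraries. Cd34, for example, was at 241 and 122 TPM in Control 2 and 3 and at 94.5, 119 and 55.9 TPM in PRC1 i2KO 1, 2 and 3. In TPM this order was found in 22.8% of eligible genes. Whether it is more frequent among bulge markers was not tested. Of 44 bulge genes tested by edgeR, 1 rose and 0 fell at an adjusted p under 0.05, and 4 were higher and 10 lower with p unadjusted. Over all genes tested by edgeR, 0.126% rose and 0% fell at that adjusted p, and 7.43% were higher and 3.51% lower unadjusted. DESeq2 called 2 of the bulge genes higher and 2 lower, beside 3.43% and 0.75% of the genes it adjusted. The leukocyte gene Ptprc and the fibroblast gene Col1a1 were at 3.25 TPM or less, and the endothelial gene Pecam1 was between 5.07 and 11.1 TPM. Summed markers of differentiating and interfollicular epidermis (12 genes) were at 1433 and 1113 TPM in the Control libraries against 1217, 3741 and 1643 TPM in PRC1 i2KO 1, 2 and 3. For 12 upper follicle and sebaceous markers the sums were 295 and 342 TPM against 833, 436 and 457 TPM, and for 11 fibroblast and dermal papilla markers 13.1 and 9.32 TPM against 31.9, 28.7 and 17.2 TPM. The sum over 9 melanocyte markers was 71.4 and 44.7 TPM in the Control libraries and 23.1, 38.2 and 20.8 TPM in PRC1 i2KO. The part of these markers in the values of the 38 genes was not tested. In sorted bulk cells, fewer cells of a type and less RNA per cell cannot be told apart.

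The 38 genes were mostly of modest level, with a median Control mean of 14.6 TPM against 18.1 TPM over the eligible genes, and a range from 5.61 (Cyth4) to 100 TPM (Wnk4). Their median log2 ratio of PRC1 i2KO mean to Control mean was -1.84 in TPM, from -2.94 for Zfp236 to -1.07 for Lingo1. Over all eligible genes the median was -0.28. Just inside the threshold lay Gm21961 (ratio 0.499), Mkks (0.498), Lingo1 (0.494) and Arhgap26 (0.489). Just outside it lay 4930402H24Rik (0.506), Tmem39b (0.506), Rbl1 (0.507) and Fitm2 (0.510).

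**Figure D1:**
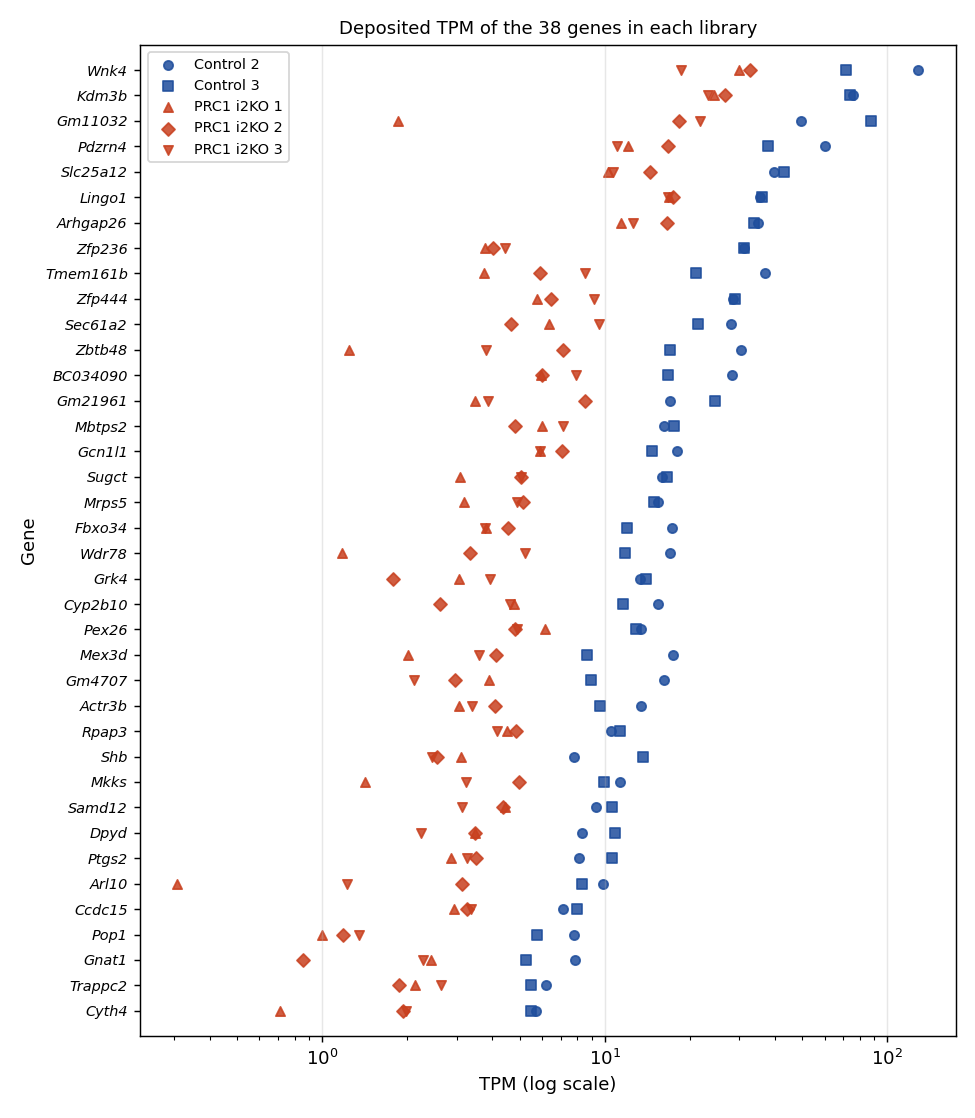
Deposited TPM (x axis, log scale) of each of the 38 genes (y axis, ordered by Control mean) in the 2 Control libraries (blue) and the 3 PRC1 i2KO libraries (red), 1 point per library. By the rule that chose the genes, all red points lie left of the blue ones. The distance is widest for Zfp236, and Arl10 and Gm11032 have 1 far lower library, PRC1 i2KO 1.

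A gene's TPM depends on its read count, on the transcript length assigned to it and on the sum over all genes in the library. Counts and length were therefore set apart. Read counts were scaled to TMM-adjusted library sizes (CPM, no length scaling). The implied length is the ratio of count to TPM in a library, put on a scale of bases by genes with a single annotated transcript. The CPM and length ratios need not add up to the TPM ratio, because neither carries the sum over all genes. In CPM the median log2 ratio of the 38 genes was -1.04, where that of the eligible genes was 0.06. In 31 of the 38, every PRC1 i2KO library was also below both controls in CPM, an order found in 12% of eligible genes, and 4 met the 0.5 criterion in CPM as well (0.0554% of eligible genes), namely Pdzrn4, Zbtb48, Gm4707 and Arl10. In the other 7, Kdm3b, Lingo1, Zfp236, Zfp444, Gcn1l1, Samd12 and Dpyd, the groups overlapped or were in the opposite order in CPM.

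The implied length was at least 1.5-fold longer in PRC1 i2KO for 17 of the 38 genes, against 2.89% (209) of the eligible genes. A longer implied length lowers TPM at a given count, so the rule favours such genes, and the share is a description of how the set is made up. These 17 genes had a median log2 ratio of -1.86 in TPM but of -0.47 in CPM, with a median log2 length ratio of 1.02. The other 21 had -1.82 in TPM, -1.39 in CPM and 0.06 in length, and all 21 were below both controls in CPM in every PRC1 i2KO library. The rule and the split by length favour lower counts in these 21 genes, so this order is a description too. In 13 of the 38 genes the log2 length ratio was larger than the log2 CPM ratio with its sign turned. Among these 13 are Lingo1 and Samd12, whose mean CPM was not lower in PRC1 i2KO. The number depends on the scale used for the counts. Over the eligible genes the median log2 ratio was -0.28 in TPM but 0.06 in CPM.

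**Figure D2:**
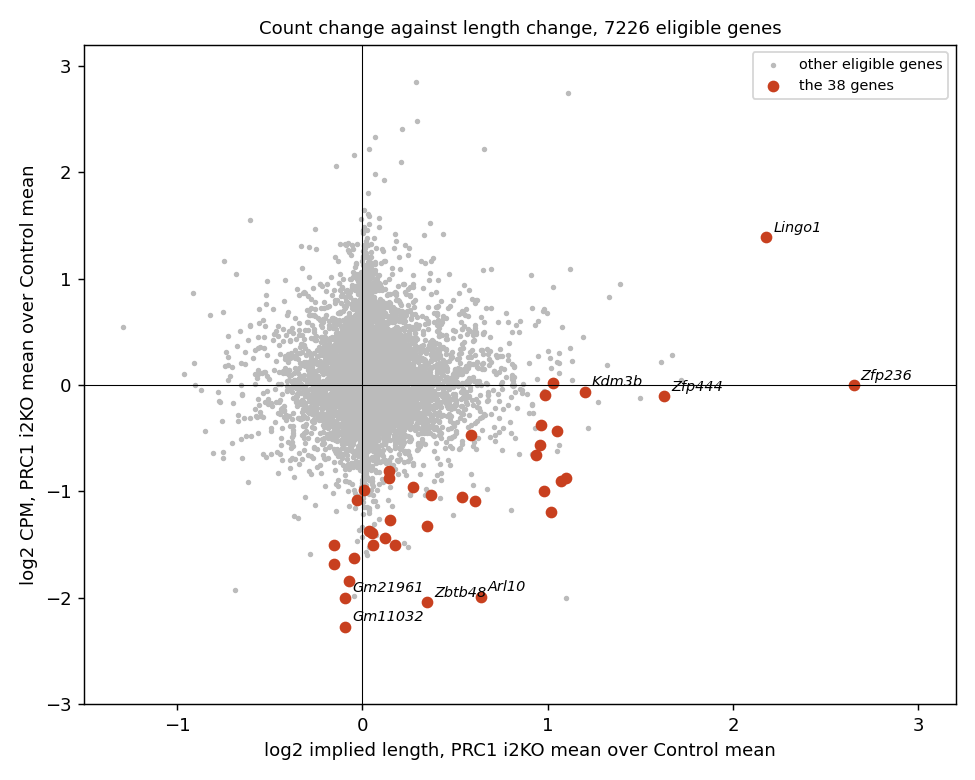
Log2 ratio of CPM (y axis) against log2 ratio of implied transcript length (x axis), PRC1 i2KO mean over Control mean, for the 38 genes (red) and the other eligible genes (grey), 1 point per gene. The 38 genes form an arm to the lower centre, where counts are lower at like length (Gm11032, Gm21961), and an arm to the right, where length is longer at like counts (Zfp236, Zfp444, Kdm3b), with Lingo1 higher in counts.

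Among the genes lower in counts as well as in TPM, Wnk4 and Pdzrn4 had the most reads in Control. Wnk4 (ENSMUSG00000035112.17) encodes a kinase that, through the kinases SPAK and OSR1, sets the activity of cation-chloride cotransporters. It was at 129 and 71.2 TPM in Control 2 and 3 and at 29.8, 32.6 and 18.7 TPM in PRC1 i2KO 1, 2 and 3. Its CPM went from 75.1 ± 6.28 (SD, n = 2) in Control to 26.5 ± 9.13 (SD, n = 3) in PRC1 i2KO, 2.84-fold lower, and the groups did not overlap. Its mean implied length was 838 bases in Control and 872 in PRC1 i2KO, well under its longest annotated transcript of 4117 bases in both groups. By library it was 764 and 912 bases in Control 2 and 3, and 590, 1134 and 892 bases in PRC1 i2KO 1, 2 and 3. Pdzrn4 (ENSMUSG00000036218.16) encodes a PDZ domain protein with a RING finger. It was at 60.4 and 37.8 TPM in the Control libraries against 12.1, 16.8 and 11.1 TPM in PRC1 i2KO. In CPM it was at 140 and 112 against 42.0, 55.3 and 42.1, so that the highest PRC1 i2KO library was below 0.5 of the lower control in this unit too.

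Promoter sequence was available for 24 of the 38 genes (RefSeq, build GRCm38.p6), and 250 bases before the start were read on the gene's strand. The 4 shown are Pdzrn4 and Arl10, the genes with a sequence entry that met the 0.5 criterion in both units, Wnk4, the highest in Control TPM, and Ptgs2. Capitals mark the letters of any motif that was searched. They lie at chr15:92396560-92396809 (Pdzrn4), chr13:54574797-54575046 (Arl10), chr11:101260317-101260566 (Wnk4) and chr1:150099781-150100030 (Ptgs2), all on the plus strand.
Pdzrn4: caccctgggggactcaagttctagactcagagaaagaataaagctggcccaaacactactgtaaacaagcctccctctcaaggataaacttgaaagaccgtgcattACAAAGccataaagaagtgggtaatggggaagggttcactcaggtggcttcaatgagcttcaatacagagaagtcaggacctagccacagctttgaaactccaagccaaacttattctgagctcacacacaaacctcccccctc
Arl10: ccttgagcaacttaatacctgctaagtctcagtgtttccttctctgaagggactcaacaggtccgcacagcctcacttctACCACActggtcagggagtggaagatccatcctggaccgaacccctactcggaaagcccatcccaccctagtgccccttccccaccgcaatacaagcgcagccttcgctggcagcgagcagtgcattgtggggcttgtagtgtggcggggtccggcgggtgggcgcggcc
Wnk4: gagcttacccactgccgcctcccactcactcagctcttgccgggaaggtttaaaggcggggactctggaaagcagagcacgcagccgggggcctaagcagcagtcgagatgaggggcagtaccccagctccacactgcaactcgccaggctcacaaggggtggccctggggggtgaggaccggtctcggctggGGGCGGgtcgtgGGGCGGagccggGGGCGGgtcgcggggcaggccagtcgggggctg
Ptgs2: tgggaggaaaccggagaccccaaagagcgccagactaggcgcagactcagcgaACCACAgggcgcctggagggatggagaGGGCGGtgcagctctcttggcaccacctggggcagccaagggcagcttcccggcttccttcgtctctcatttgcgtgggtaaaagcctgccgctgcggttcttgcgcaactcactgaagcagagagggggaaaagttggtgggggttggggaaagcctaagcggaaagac
The Wnk4 window holds 3 GC boxes (GGGCGG) within 57 bases of the start and a GC content of 70%. The Pdzrn4 window has a GC content of 47.2% with 1 CpG and a SOX motif (ACAAAG) 144 bases before the start. Windows of Arl10 and Ptgs2 each hold a RUNX motif (TGTGGT, on the minus strand), and that of Ptgs2 a GC box as well.

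Over the 24 windows the GC content was 59.4% at the median, against 61.2% for the 5870 eligible genes with a sequence and 52% for all 27025 promoters. CpG dinucleotides reached at least 0.6 of the number set by base composition in 15 of the 24 (62.5%), against 75.5% of eligible and 34.5% of all promoters. A GC box was found in 62.5% of the 24, 63.7% of the eligible and 32.9% of all promoters. The CCAAT box, searched by these letters, was in 3 of the 24 (12.5%), with 36.2% in the eligible and 34.5% in all promoters. The other motifs, searched on both strands like these, were few. The E-box CACGTG was in 0 of the 24, in 9.03% of eligible and in 6.05% of all promoters. AP-1 (TGANTCA) was in 2 (8.33%), against 3.83% of eligible and 6.87% of all promoters. The SOX motif was in 2 (8.33%), against 11% and 16.5%, and the RUNX motif in 3 (12.5%), against 9.45% and 14.2%. ETS (CCGGAAG) was in 3 (12.5%), against 16% of eligible and 7.05% of all promoters. The promoter element of TBP, searched as TATAAA, was in 1 (4.17%), against 5.47% and 13%. The CRE, by its palindrome, was in 1, against 3.07% and 1.62%. For the GATA family, the letters searched were AGATAA, in 1 of the 24, 5.08% of eligible and 10.3% of all promoters. The TCF/LEF motif (CTTTGAT) was in 1, against 2.4% and 3.23%. NF-kB, YY1 and NRF1 motifs were in 0 of the 24, in 0.119%, 0.63% and 1.72% of eligible and in 0.13%, 0.218% and 0.781% of all promoters. With 24 windows these shares are coarse, and a match is a run of letters, not a bound site.

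Regulators of genes and RNA came next. Zbtb48, a zinc finger protein that binds telomere repeats, had 18.6 and 13.2 CPM in Control 2 and 3 but 1.83, 6.18 and 3.61 CPM in PRC1 i2KO, 4.1-fold lower on average, with PRC1 i2KO 1 the lowest. Mex3d, an RNA-binding protein, had 20.2 and 14.4 CPM in Control 2 and 3 but 4.49, 6.63 and 7.24 CPM in PRC1 i2KO. The groups were apart in both genes, and in both Control 2 was above Control 3.

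Enzymes of lipid mediators and drug metabolism included Ptgs2 and Cyp2b10. Ptgs2 (cyclooxygenase 2), the inducible enzyme of prostaglandin synthesis, was at 8.11 and 10.6 TPM in the Control libraries against 2.87, 3.5 and 3.26 TPM in PRC1 i2KO. Its counts spread more, with 20.2 and 44.7 CPM in the controls against 6.55, 15.7 and 12.2 CPM, so that Control 2 lay nearer to PRC1 i2KO 2 than to Control 3. Cyp2b10, a cytochrome P450, was even between controls (22.7 and 22.2 CPM) and lower in PRC1 i2KO (11.2, 4.78 and 10.2 CPM).

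Several of the 38 genes serve membrane traffic and organelles. Sec61a2, a paralogue of the channel subunit through which proteins enter the endoplasmic reticulum, had Control values of 26.1 and 16.8 CPM against 7.15, 5.26 and 8.45 CPM (3.09-fold lower). Mbtps2, the site-2 protease that releases SREBP and ATF6 from membranes, had 29.4 and 37.5 CPM against 19.3, 14.3 and 18.1 CPM. Pex26, which anchors the import machinery of peroxisomes, went from 41.7 ± 1.71 (SD, n = 2) to 22.8 ± 3.66 CPM (SD, n = 3). Trappc2, a subunit of the TRAPP vesicle tethering complex, had 7.72 and 8.01 CPM against 3.76, 2.41 and 4.97 CPM. In these 4 genes the groups were apart in CPM and the mean implied length differed by no more than 1.21-fold.

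Small GTPase, actin and receptor signalling genes were at low levels. Arl10, an ARF-like GTPase, had 192 and 55 Control counts against 8, 66 and 40 counts, or 3.9 and 4.36 CPM against 0.367, 1.49 and 1.27 CPM. Cyth4, an exchange factor for ARF GTPases, had 4.85 and 5.87 CPM against 0.733, 1.85 and 2.44 CPM. Both had their lowest value in PRC1 i2KO 1. Shb, an adaptor downstream of receptor tyrosine kinases, was at 9.87 and 13.3 CPM against 7.01, 5.08 and 4.71 CPM. Actr3b, a paralogue of an Arp2/3 subunit, averaged 2.97 and 1.46 CPM in Control and PRC1 i2KO, and Gnat1, the rod transducin subunit, 2.2 and 0.84 CPM.

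Chaperone genes and genes of little known function made up the rest of the 21. Rpap3, a co-chaperone in the R2TP complex, had Control values of 18.0 and 26.3 CPM and then 12.6, 10.4 and 10.5 CPM in PRC1 i2KO, with an implied length of 2134 and 2145 bases. Mkks, a chaperonin-like protein needed to assemble the BBSome of cilia, was at 13.5 and 17.9 CPM against 5.32, 7.4 and 6.14 CPM. BC034090 was 2.41-fold lower, Ccdc15 1.75-fold lower and Gm4707 3.59-fold lower in CPM. Gm11032 and Gm21961 are annotated with a single transcript of 102 and 114 bases, and their high TPM rests on few reads: Gm11032 had 38 and 27 Control counts against 1, 17 and 15, and Gm21961 had 16 and 9 against 2, 9 and 3. In Control 3, 27 counts of Gm11032 thus stood for 87.4 TPM.

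**Figure D3:**
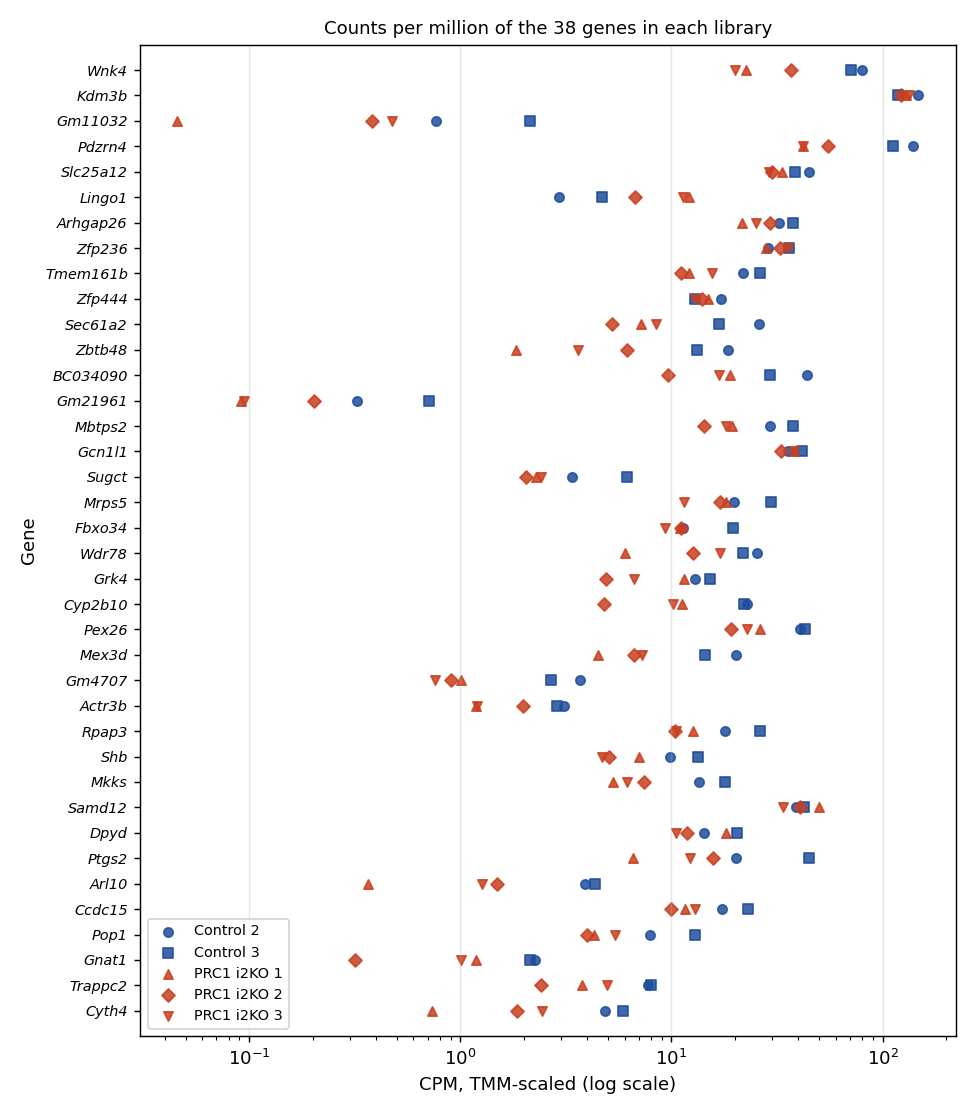
CPM on TMM-scaled library sizes (x axis, log scale) of each of the 38 genes (y axis, same order as for TPM) in the 2 Control libraries (blue) and the 3 PRC1 i2KO libraries (red), 1 point per library. Red and blue points overlap or reverse for Kdm3b, Lingo1, Zfp236, Zfp444, Gcn1l1, Samd12 and Dpyd, while Wnk4, Pdzrn4, Zbtb48 and Arl10 stay apart.

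Of the 17 genes with a longer implied length, Zfp236 had the highest fold (6.28), then Lingo1 (4.52), Zfp444 (3.09) and Kdm3b (2.3). Zfp236 (ENSMUSG00000041258.17), a zinc finger protein, had the largest TPM difference of the 38, with 31.2 and 31.1 TPM in the Control libraries and 3.76, 4.02 and 4.44 TPM in PRC1 i2KO (7.66-fold). In counts the groups overlapped, at 28.6 and 35.9 CPM in Control and 28.0, 32.8 and 35.6 CPM in PRC1 i2KO. Its implied length was 1139 and 1057 bases in the controls and 5817, 8182 and 6701 bases in PRC1 i2KO. The annotation lists 7 transcripts of this gene, from 156 to 9626 bases, and the implied length lay nearer the short end of that range in Control and nearer the long end in PRC1 i2KO. Zfp444 showed the same order, with 745 and 411 bases in the controls and 2021, 2151 and 1185 bases in PRC1 i2KO, at 15.0 ± 2.86 (SD, n = 2) and 14.0 ± 0.955 CPM (SD, n = 3).

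Kdm3b (ENSMUSG00000038773.11), a demethylase of histone H3 lysine 9, was at 75.9 and 74.0 TPM in the Control libraries and 24.4, 26.6 and 23.2 TPM in PRC1 i2KO. In counts it was at 148 and 119 CPM against 129, 122 and 133 CPM, and the groups overlapped. Its implied length was 2419 and 1480 bases in the controls and 4127, 4575 and 4772 bases in PRC1 i2KO, on a gene whose longest annotated transcript has 6363 bases. Kdm3b was the single gene of the 38 in the pathway and marker lists used here. In the list of 97 histone and DNA modifying enzymes that held it, 0 genes rose and 0 fell by edgeR (adjusted p under 0.05), while 3 had a higher and 2 a lower level when p was left unadjusted (under 0.05), beside 7.43% and 3.51% of all tested genes. DESeq2 called 0 of this list in either direction. The median log2 fold change was 0.04, against 0.01 over all tested genes.

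Lingo1 was lower in TPM and higher in counts. This transmembrane protein with leucine-rich repeats, known as a partner of the Nogo receptor, was at 35.4 and 36.2 TPM in the Control libraries and 16.9, 17.5 and 16.7 TPM in PRC1 i2KO. It had 145 and 59 Control counts against 263, 297 and 358, which is 2.94 and 4.68 CPM against 12.1, 6.7 and 11.3 CPM. All PRC1 i2KO libraries were thus above both controls in CPM. The implied length was 104 and 119 bases in the controls and 556, 383 and 567 bases in PRC1 i2KO. Its annotated transcripts run from 265 to 3627 bases, so both Control values lie below the shortest of them. The implied length falls short for transcripts near the fragment size, and the Control TPM of Lingo1 rests on few reads over a very short length.

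Slc25a12, the mitochondrial aspartate-glutamate carrier, was 3.51-fold lower in TPM and 1.35-fold lower in CPM (44.8 and 38.6 against 33.4, 30.0 and 29.1), with 2.07-fold longer implied length. Gcn1l1, the activator of the amino acid sensing kinase GCN2, was 2.6-fold lower in TPM at 38.8 ± 4.17 (SD, n = 2) and 36.2 ± 2.89 CPM (SD, n = 3). Dpyd, the first enzyme of pyrimidine breakdown, was at 14.3 and 20.5 CPM against 18.1, 11.9 and 10.5 CPM. These 3 genes therefore differed less in counts than in TPM. Mrps5, of the small mitochondrial ribosomal subunit, was at 19.7 and 29.5 CPM against 18.2, 17.0 and 11.5 CPM, and Sugct, a mitochondrial CoA transferase, at 3.39 and 6.19 CPM against 2.29, 2.05 and 2.4 CPM. Pop1, a protein of RNase P and RNase MRP, was lower in counts, at 7.88 and 12.9 CPM against 4.31, 3.97 and 5.38 CPM. Its implied length was also longer in PRC1 i2KO, with 1656 bases in Control and 3346 in PRC1 i2KO on average.

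Grk4, a G protein-coupled receptor kinase, was at 12.9 and 15.3 CPM against 11.5, 4.92 and 6.64 CPM. Wdr78, an intermediate chain of axonemal dynein, was at 25.5 and 21.9 CPM against 6.0, 12.7 and 17.0 CPM. PRC1 i2KO 1 was thus the highest of its group for Grk4 and the lowest for Wdr78. Arhgap26 was lower in CPM in every PRC1 i2KO library, as were the F-box gene Fbxo34 (1.48-fold on average) and the membrane protein gene Tmem161b (1.86-fold). Samd12, a SAM domain protein, averaged 40.8 and 41.4 CPM in Control and PRC1 i2KO, with implied lengths of 4435 and 9029 bases. In 16 of the 17 genes every PRC1 i2KO library had a longer implied length than both controls, an order found in 23.4% of eligible genes. Picking the 17 by their mean length favours this order. The exception was Arl10, where PRC1 i2KO 2 was at 477 bases and the controls at 489 and 483 bases.

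**Figure D4:**
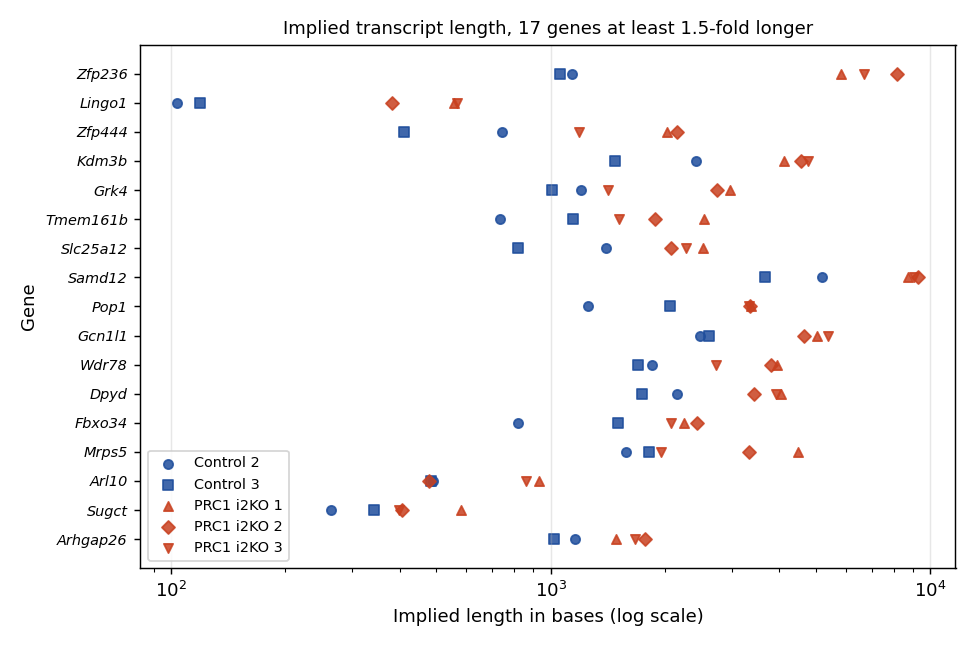
Implied transcript length in bases (x axis, log scale) of the 17 genes whose mean implied length was at least 1.5-fold longer in PRC1 i2KO (y axis, ordered by that fold), in the 2 Control libraries (blue) and the 3 PRC1 i2KO libraries (red). Red points lie to the right of both blue ones in each gene except Arl10, with the widest gap in Zfp236. Picking the genes by mean length favours this order.

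The 38 genes had 6 annotated transcripts each at the median, as did the eligible genes, and 36 had more than 1. The longest annotated transcript was 8.56 times the shortest at the median, against 6.99 times over the eligible genes. In the annotation 14 of the 38 overlap another gene on the same strand and 13 others overlap only a gene on the opposite strand, Nudt5 beside Sec61a2 and Ofd1 beside Trappc2 among them. Overlap was taken over whole gene spans, introns included, and its share over eligible genes was not counted. Reads shared with those neighbours would make the values of these genes less certain, but such sharing was not measured. Whole-number counts in all 5 libraries, to within 0.01, were found for 12 of the 38, among them Zfp236, Pdzrn4, Zbtb48 and Ptgs2, and for 33% of the eligible genes. None of the 38 were next to each other among protein-coding genes.

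For 23 of the genes, partner sets were listed from textbook knowledge once the genes were known (complex subunits, paralogues, pathway neighbours), and of 188 partners tested 0 rose and 0 fell by edgeR at an adjusted p under 0.05, with 0.126% of all tested genes called higher. At an unadjusted p under 0.05, 24 were higher and 0 lower, beside 7.43% higher and 3.51% lower over all 22181 genes tested. DESeq2 called 5 of the partners higher and 0 lower, beside 3.43% and 0.75% of the genes it adjusted. The median log2 fold change of the partners was 0.22, against 0.01 over all tested genes. The rule had screened the 128 eligible partners too, in the same libraries, and 0 met it, which is near the 0.526% of all eligible genes and is read as nothing particular to them.

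Among the kinases beside Wnk4, Wnk1 had 460 and 440 CPM in Control 2 and 3 and 491, 474 and 475 CPM in PRC1 i2KO (log2 fold change 0.09, edgeR adjusted p = 0.872). Wnk2 averaged 1.59 and 11.1 CPM in the 2 groups (edgeR adjusted p = 0.150), and Stk39, which encodes SPAK, averaged 6.81 and 18.7 CPM (edgeR adjusted p = 0.255). Neither passed the test by edgeR. By DESeq2, 2 of the 11 partners of Wnk4 and 1 of the 6 partners of Slc25a12 were called higher, and 0 lower. Of all genes DESeq2 adjusted, 3.43% were called higher and 0.75% lower. The carrier Slc25a12 works in the malate-aspartate shuttle, where the dehydrogenase Mdh1 was at 43.8 and 83.9 CPM (adjusted p = 0.186 by edgeR). All 5 other genes of this set had a log2 fold change above 0. Over all tested genes the median was 0.01, and the share above 0 was not counted. Ptgs1, the constitutive cyclooxygenase, was at 15.5 ± 2.23 CPM (SD, n = 2) in Control and 28.7 ± 14.6 CPM (SD, n = 3) in PRC1 i2KO (edgeR adjusted p = 0.490), with PRC1 i2KO 2 the highest at 44.7 CPM. Sec61a1, the major paralogue of Sec61a2, was at 55.6 and 70.8 CPM (edgeR adjusted p = 0.607). Pdzrn3, a relative of Pdzrn4, was at 307 and 292 CPM (edgeR adjusted p = 0.928), and Jmjd1c and Kdm3a, the relatives of Kdm3b, had edgeR log2 fold changes of 0.01 and 0.00.

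The 3 PRC1 i2KO libraries differed in how low the 38 genes lay. The median log2 shift from the Control mean in TPM was -1.93, -1.63 and -1.68 in PRC1 i2KO 1, 2 and 3, while that of the eligible genes was -0.43, -0.10 and -0.41. In CPM the shifts were -0.97, -1.12 and -1.08. PRC1 i2KO 1 was the lowest of its group in 20 of the 38 genes in TPM, and PRC1 i2KO 2 the highest in 17. The libraries were thus in a different order in TPM and in CPM. PRC1 i2KO 2, with the smallest TPM shift, also had the smallest share of mitochondrial RNA in its group and the most epidermal marker RNA. The controls were closer to each other in these genes (median absolute log2 ratio 0.34) than in the eligible genes (0.50), which a rule on the lower control favours.

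The tests over all genes used the same contrast as the rule, and nothing is read from them for these genes. By edgeR 0 of the 38 were called lower, as were 0% of the 22181 genes tested. At an unadjusted p under 0.05, 20 were lower by edgeR, beside 3.51% of all tested and 3.17% of eligible genes, and 1 was higher, Lingo1, beside 7.43% of all tested genes. DESeq2 called 11 of the 38 lower, where 0.75% of the genes it adjusted were called lower and 3.43% higher. Without adjustment (p under 0.05) it had 21 lower and 1 higher, beside 3.4% and 7.62% of its genes. Whether samples of a group are separate mice is not in the labels, and p-values cover the sample-to-sample spread alone, part of which can be technical.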

How the data were processed

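Polyadenylated RNA of 5 sorted samples (2 Control, 3 PRC1 i2KO) was sequenced. Per the file headers, the table the authors deposited holds a count and a TPM value per feature and sample. As deposited by the authors, the count is an expected count, an estimate, since many values are not whole. TPM is scaled for transcript length and library size. Build mm39 and the tools RSEM 1.3.3, STAR 2.7.9a and DESeq2 1.38.2 are named, without roles, in the submitters' processing notes. The strand setting of the counting is not given. Columns were matched to samples by the sample titles. The 38 genes, the lists and the tests were chosen with earlier results of these data known.

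Expected counts were rounded and fitted by group with the quasi-likelihood test of edgeR 4.0.16 (R 4.3.3, TMM scaling, genes kept by filterByExpr, Benjamini-Hochberg adjustment over all tested genes, threshold 0.05). CPM values use TMM-scaled library sizes. Ratios are of group means and ± is the SD over libraries. DESeq2 1.42.0, limma-voom and limma 3.58.1 on log2(TPM + 1) and log2(TPM + 0.1) were alternatives. The fits were tested on simulated counts with 200 changed genes of 1 CPM or more. Of the edgeR calls there, 2 of 90 fell on unchanged genes, and 17.7%, 48.6% and 78.4% of 2-fold, 4-fold and 8-fold changes were recovered. Of the genes made lower, over all sizes, 29% were recovered.

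The implied length is the expected count divided by TPM. In place of a library median, it was put on a scale of bases by the median of that ratio over annotated length, in 406 to 652 protein-coding genes per library with a single transcript of at least 2000 bases and at least 100 counts. In these genes the middle of the distribution (25th to 75th percentile) lay between 0.983 and 1.01 of the annotated length. It is an effective length, so it falls short for transcripts near the fragment size. Transcripts and overlaps come from GENCODE M21 of GRCm38, where all 38 genes were found. Since the notes name mm39, no coordinates of the files are given, and promoter coordinates are RefSeq's. As the rule found fewer than 40 genes, all may be named, as the rule for named genes allows.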

Additional observations from a re-analysis of the deposited data

How the results depend on the processing

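The number of genes depended on the thresholds and on single libraries. It was 104 with a Control minimum of 1 TPM, 24 with 10 TPM, 12 with a ratio of 0.4 and 101 with 0.6. With TMM-scaled CPM for the ratio it was 4, all among the 38. TPM rescaled without mitochondrially encoded features gave 27 genes (23 of them among the 38), and centring on the library median gave 28 (22 shared). With 1 length per gene in all libraries, an alternative chosen after seeing the data, it was 19 (15 shared). Leaving out 1 library gave 56 to 654 genes: 110 and 654 without Control 2 and 3, and 56, 154 and 83 without PRC1 i2KO 1, 2 and 3. A rule with fewer libraries to satisfy can only keep or add genes.

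For the 38 genes, the median log2 TPM ratio of -1.84 was -1.63 with log2(TPM + 1), -1.67 without mitochondrially encoded features, -1.60 centred on the library median and -1.33 with 1 length per gene, and -1.95 to -1.61 with 1 library left out. In CPM the median of -1.04 was -1.29 with the library total as scale, and -1.12 to -0.81 with 1 library left out. The median length ratio was 0.25 to 0.49 under its alternatives. Gene by gene, CPM in place of TPM turned the direction for Lingo1 (1.39) and Samd12 (0.02).

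Genes called lower over all tested genes numbered 0 by edgeR, by edgeR with DESeq2 size factors and by limma-voom, 12 (2 of the 38) with no filter on low counts, 6 (1 of the 38) among protein-coding genes alone, 163 (11 of the 38) by DESeq2, and 1 and 5 (0 of the 38) by limma on log2(TPM + 1) and log2(TPM + 0.1). With a library left out they numbered 0 to 4, and 0 to 2 of the 38, the calls being made without PRC1 i2KO 2 (Pdzrn4 and Wnk4). With the title number as a replicate block they numbered 25 (2 of the 38, again Pdzrn4 and Wnk4). Whether like-numbered samples share more than the number is not in the labels. Deviations of like-numbered libraries from their group mean correlated at 0.0949 for number 2 and 0.0636 for number 3. With 2 controls their deviations are mirror images of each other, so these values cannot decide whether the samples are paired. Depth limits the 9 genes with fewer than 100 counts in a control, Gm11032 and Gm21961 most of all.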
